A study of Arabidopsis thaliana with 4 samples.

Results

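The 46 genes described here encode UDP-glycosyltransferases of Arabidopsis thaliana, enzymes that move a sugar from a UDP-sugar onto a small acceptor molecule. They are the genes that a probe set of the array reads alone and whose symbol in the RefSeq gene table begins with UGT and a digit. The flavonoid and anthocyanin genes UGT75C1, UGT78D2, UGT79B1 and UGT89C1 were left out by rule. The 46 are part of 13350 genes with a probe set of their own, and each had 1 such probe set, so no choice between probe sets was needed. RefSeq gives 58 genes such a symbol. Of these, 4 share their probe set with another gene (UGT71D1, UGT73B2, UGT73B3 and UGT89B1), 7 have no probe set named for them in the annotation used here (UGT73C6, UGT74E2, UGT74F2, UGT75B1, UGT75B2, UGT84A2 and UGT85A1), and 1 is an excepted gene. The study behind these arrays reports UDP-glucosyltransferase activity as enriched among its up-regulated genes. Of the UGT genes it lists as up-regulated, UGT73B3, UGT75B1 and UGT85A1 are not members. The 46 thus cover that result only in part.

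RNA from whole seedlings of ecotype Columbia, 14 days old, was hybridised to 4 Affymetrix arrays, 2 labelled WT and 2 labelled as a GST overexpression genotype, called 35S:OsGSTU4 here. All were grown on MS medium under control conditions, with 16 h of light and 8 h of darkness per the submitters' text. The study's methods give a shorter light period. In the study the transgenic plants carry 35S:OsGSTU4, a glutathione S-transferase gene of rice, from the tau class, behind the constitutive CaMV 35S promoter, and the arrays were made from a single homozygous line. The labels name no line, and a sentence of the submitters' design text speaks of a GRX line. Because 1 line was compared with WT, an effect of the insertion site cannot be told apart from one of the transgene, and since the annotation names no probe set for the rice gene, the label could not be checked on its target.

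UDP-glycosyltransferases of plants act late in metabolism. They attach glucose and other sugars to hormones, defence compounds, phenylpropanoids and foreign chemicals, which makes the acceptor more soluble and often inactive, and the conjugate can then be stored in the vacuole or cleaved again by a β-glucosidase. In detoxification they work beside glutathione S-transferases, which conjugate glutathione to reactive compounds. The number after UGT is the family, and members of a family have similar proteins, although their acceptors can differ widely.

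The values are log2 signals as deposited. A probe set is a group of short oligonucleotides summarised as 1 signal, and signals of different probe sets do not compare the abundance of their transcripts. The arrays had median log2 signals of 7.29 to 7.42 and correlated with each other at 0.900 to 0.909 across 22746 probe sets, and WT replicate 1 correlated more closely with 35S:OsGSTU4 replicate 1 (0.909) than with the other WT array (0.901). The log2 signal of the 3′ control probe sets exceeded that of the 5′ ones, a gap that widens as labelled RNA gets shorter, by 3.48 and 3.53 for actin on the WT-labelled arrays and 4.07 and 3.76 on the 35S:OsGSTU4-labelled arrays. For GAPDH the gap was 1.01 and 0.96 against 1.05 and 1.36. Of 16 listed root genes 3 had a probe set of their own, and their summed linear signal was 529.8 and 449.0 on the WT-labelled arrays and 307.9 and 290.0 on the others. By gene, AT4G26010 had log2 signals of 8.22 and 7.87 on the WT-labelled arrays and 6.95 and 7.62 on the others. EXPA7 had 7.11 and 7.17, then 6.79 and 4.50, whereas EXPA18 hardly differed, at 6.53 and 6.14, then 6.20 and 6.14. Of 13 listed shoot genes 2 did, LHCB4.2 and RCA, with sums of 23420 to 30370 against 28110 to 35060. RCA, with log2 signals of 14.40 to 14.87 over the 4 arrays, made most of each shoot sum. No marker of either list stood at 0. The part of RNA quality and of the share of root tissue in the differences below was not tested, and in whole seedlings fewer cells of a type cannot be told apart from less RNA per cell.

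A positive difference means a higher log2 signal under the label 35S:OsGSTU4 than under the label WT. For UGT73B4, the only member among the study's listed genes, the difference found here is opposite in sign to the study's. The other genes it lists are not shown here. Groups are called by their GEO labels throughout. Whether the labels are exchanged between the groups was not tested. With the labels exchanged every difference would change its sign and keep its size and P, so 3 of the 5 members named next would be higher and 2 lower, and 15 of the 19 brighter members would have a higher mean. The comparison asks which of these genes differ between seedlings with the rice gene and WT seedlings without stress. Limma was fitted across all 22746 probe sets, and a gene is said to pass the thresholds of the study where the fold change was at least 2 with an unadjusted P of at most 0.05. Values before "against" are WT replicates 1 and 2, those after it 35S:OsGSTU4 replicates 1 and 2, and a number in parentheses after a difference is its standard error.

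Past these thresholds UGT84B2 and UGT73C2 were higher (4.35% of the members, background 2.38%) and UGT84B1, UGT73B4 and UGT76E1 were lower (6.52%, background 2.34%) on the 35S:OsGSTU4-labelled arrays. These 5 of 46 members (10.9%) stand beside 1074 of all 22746 probe sets, or 4.72%. All 5 belonged to the 27 members whose mean signal was at or below the median probe set (7.35), of which they made 18.5%, and among all probe sets in that dimmer part 8.92% passed, 4.43% as higher and 4.49% as lower. None of the 19 brighter members passed, where 0.519% of all bright probe sets did. After adjustment over all probe sets limma left 0 members under 0.05, the lowest adjusted p of a member being 0.470, and 0 probe sets in all, while 5 members had an unadjusted P of at most 0.05, against 5.79% of all probe sets. The methods' t-test also left 0 members after adjustment. The number of arrays limits the precision, and the smallest exact permutation p of so small a design is 0.333.

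**Figure D1:**
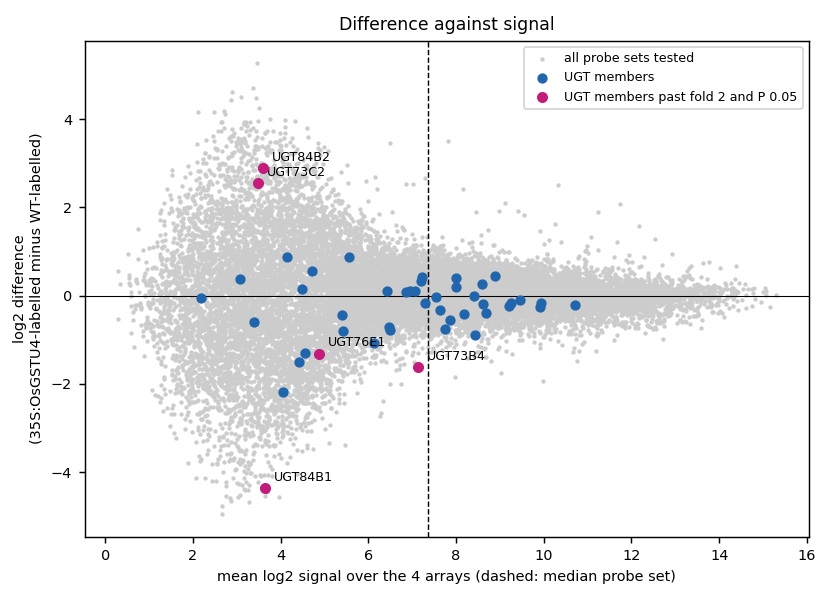
The log2 difference (35S:OsGSTU4 label minus WT label) of every probe set tested (grey) and of the 46 members (blue, or pink past the thresholds) is plotted against the mean log2 signal over the 4 arrays, with the median probe set at 7.35 as a dashed line. The 5 members past the thresholds all lie left of that line, where grey points spread widely, and the brighter members stay within 0.90 of 0.

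The largest difference was at UGT84B1 (AT2G23260), whose enzyme forms the glucose ester of the auxin indole-3-acetic acid. It stood at 6.26 and 5.41 on the WT-labelled arrays and at 0.72 and 2.21 on the 35S:OsGSTU4-labelled arrays. Both of the latter were far below both of the former, and the means of 5.83 ± 0.60 and 1.46 ± 1.05 (SD, n = 2) differed by -4.37 (standard error 0.69, 95% interval -6.41 to -2.33). Its neighbour on the chromosome, UGT84B2 (AT2G23250), which encodes a related enzyme that acts on the same auxin in vitro, ran the other way. UGT84B2 stood at 1.66 and 2.64 on the WT-labelled arrays and at 5.23 and 4.86 on the others, a rise of the mean from 2.15 ± 0.70 to 5.04 ± 0.26 (SD) and a difference of 2.89 (0.46, 95% interval 1.54 to 4.25). The adjusted p in limma was 0.470 for both genes. Neither pair of groups overlapped, and both genes stayed past the thresholds with each array left out in turn and with the methods' t-test. Their means of 3.65 and 3.60 lie far below the median probe set, and no detection call was used here, so it is not known which of these signals stood above background. UGT74D1 (AT2G31750), the third member with a known role in auxin conjugation, was brighter. It had 9.45 and 10.66 on the WT-labelled arrays against 9.84 and 9.74, so both arrays labelled 35S:OsGSTU4 lay between those labelled WT.

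UGT73B4 (AT2G15490), a gene of responses to pathogens and oxidative stress whose enzyme can conjugate foreign phenols, was the brightest of the 5. It stood at 8.48 and 7.43 on the WT-labelled arrays and at 6.33 and 6.32 on the 35S:OsGSTU4-labelled arrays. The groups did not overlap, and the difference of -1.63 (0.45, 95% interval -2.97 to -0.28) corresponds to a 3.09-fold lower signal (adjusted p = 0.798 in limma). Without either 35S:OsGSTU4-labelled array UGT73B4 no longer passed, at an unchanged difference of -1.63. The study chose this gene from this experiment and lists it in the opposite direction, so its difference is not independent evidence. Its list gives the gene's name beside another probe set. The probe set that reads UGT73B4 here is in that list too, as up-regulated and beside the name of another gene. The direction is thus opposite both by gene name and by probe set. The call was also lost with the methods' t-test. The gene next to it, UGT73B5 (AT2G15480), which responds to the same stresses, had 8.51 and 7.73 against 7.92 and 6.80. Its difference of -0.76 (0.56) did not pass the thresholds, and WT replicate 2 lay below 35S:OsGSTU4 replicate 1.

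UGT73C2 (AT2G36760) is a close relative of the brassinosteroid glucosyltransferase gene DOGT1. It stood at 2.67 and 1.75 on the WT-labelled arrays and at 5.16 and 4.36 on the others, a difference of 2.55 (0.51, adjusted p = 0.621 in limma) without overlap. Without 35S:OsGSTU4 replicate 1 it was 2.15 and fell just short of the thresholds. The methods' t-test and an intensity trend in the variance also ended this call. Its neighbour UGT73C1 (AT2G36750), whose enzyme can glucosylate cytokinins, had 5.44 and 4.88 against 2.45 and 4.88. The groups overlapped at the latter value, and the difference of -1.50 (0.98) rested on 35S:OsGSTU4 replicate 1. Without 35S:OsGSTU4 replicate 2 UGT73C1 was past the thresholds at -2.71. UGT73D1, named for its spread after the values were seen, had 7.10 and 3.18 against 4.18 and 1.75. Its difference of -2.18 was not far from its standard error of 1.77. UGT73C7, which takes part in immunity through phenolic acid conjugation, had 2.51 and 3.27 against 4.55 and 1.97, and UGT73B1, a brighter member, had 8.56 and 8.88 against 8.69 and 8.37. In both the groups overlapped. In all, 5 of the 7 members of family 73 had a lower mean and 2 a higher one, with a median of -0.76. That median was -0.20 without 35S:OsGSTU4 replicate 2, -0.35 without WT replicate 1 and -1.16 without WT replicate 2.

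**Figure D2:**
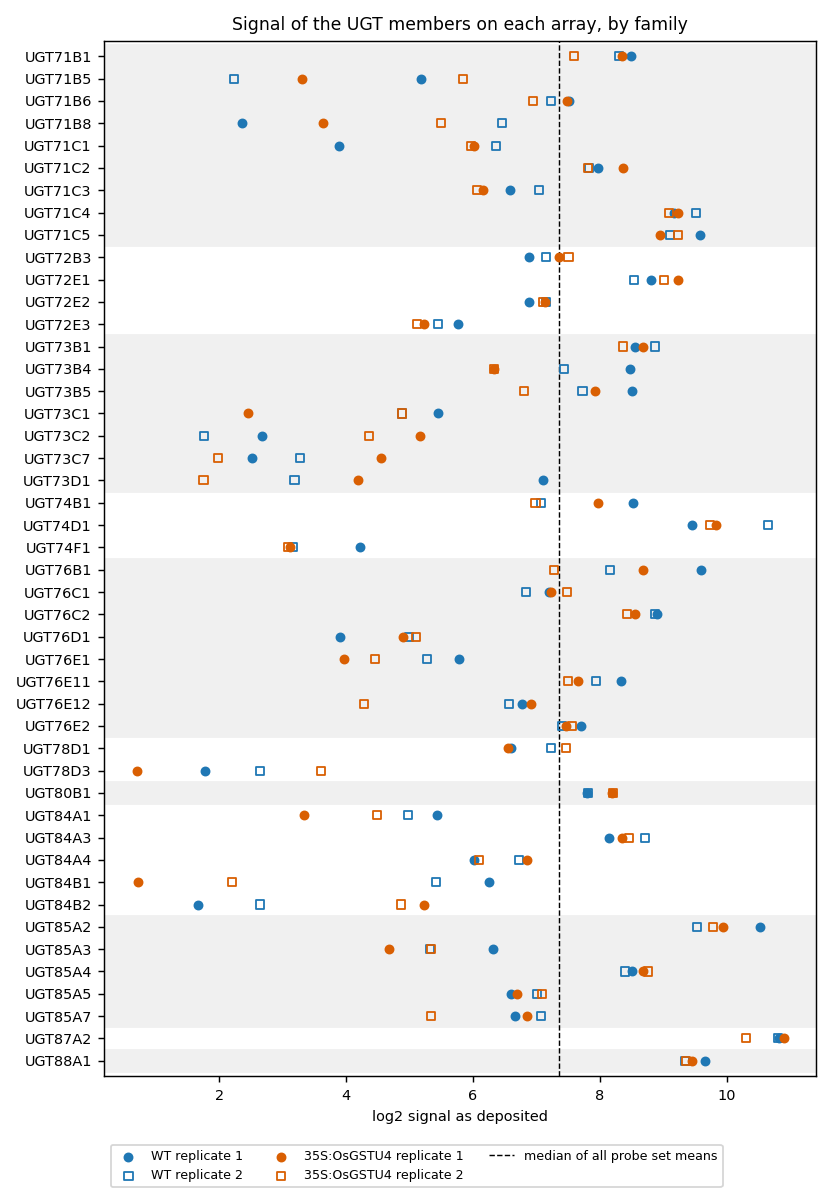
The log2 signal as deposited of each of the 46 members on each array is shown, with WT in blue and 35S:OsGSTU4 in orange, replicate 1 as filled circles, replicate 2 as open squares and families in bands. UGT84B1, UGT84B2, UGT73C2 and UGT73B4 have blue and orange points clearly apart, whereas UGT76B1 and UGT74B1 have both filled circles to the right of both squares.

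Of family 76, 6 of 8 members had a lower mean, with a median of -0.48, or -0.15 without 35S:OsGSTU4 replicate 2 and -0.27 without WT replicate 1. UGT76E1 (AT5G59580), whose enzyme can glucosylate hydroxylated jasmonate, was lower past the thresholds. It had 5.77 and 5.28 on the WT-labelled arrays and 3.97 and 4.45 on the others, with a difference of -1.32 (0.34, adjusted p = 0.759 in limma) and no overlap. The call was lost without WT replicate 1 (-1.07), without 35S:OsGSTU4 replicate 1 (-1.08) and without its replicate 2 (-1.56), and also with the methods' t-test and with an intensity trend in the variance. UGT76E2, the gene beside it, showed no such gap, with 7.70 and 7.41 against 7.46 and 7.57. UGT76E11, whose enzyme acts on flavonols, had 8.34 and 7.94 against 7.66 and 7.50. Its groups did not overlap, but the difference of -0.56 (95% interval -1.36 to 0.24) did not pass. UGT76E12, which lies close to it, had 6.77 and 6.56 against 6.91 and 4.28, so its difference of -1.07 came from 35S:OsGSTU4 replicate 2, and without replicate 1 of that group it passed the thresholds at -2.39.

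The cytokinin genes of this family differed in direction. UGT76C2 (AT5G05860), the main cytokinin N-glucosyltransferase of the plant, stood at 8.90 and 8.88 against 8.55 and 8.43, a difference of -0.40 (95% interval -1.05 to 0.26). UGT76C1 (AT5G05870), which lies next to it and acts on the same hormones, had 7.21 and 6.84 against 7.24 and 7.48, a difference of 0.33 (95% interval -0.48 to 1.15). In each gene the arrays of the groups stood apart, in UGT76C1 by only a small step, and neither passed the thresholds. Their intervals overlap, and the difference between these genes was not tested.

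Members with a known part in salicylate conjugation and pathogen responses numbered 7 of 10 listed. Of these 5 had a lower mean and 2 a higher one, with a median of -0.71, and UGT73B4 alone passed the thresholds. UGT76B1 (AT3G11340), whose enzyme glucosylates salicylic acid, isoleucic acid and N-hydroxypipecolic acid and so restrains immunity, had 9.60 and 8.15 on the WT-labelled arrays and 8.68 and 7.28 on the others. Here replicate 1 was well above replicate 2 in both groups, and the difference of -0.90 (95% interval -3.26 to 1.46) was smaller than that gap. The unadjusted P of UGT76B1 in limma was 0.332 without and 0.0487 with a replicate block. Its fold of 1.86 stayed short of the thresholds. UGT71C3, which acts on methyl salicylate, had 6.59 and 7.04 against 6.15 and 6.06, without overlap and with a difference of -0.71 (0.28) that did not pass. UGT74F1, a salicylate glucosyltransferase gene, was dim at 4.21 and 3.17 against 3.12 and 3.08, and the WT-labelled arrays differed from each other far more than the groups' nearest values did. Without WT replicate 2 it passed the thresholds at -1.11. UGT76D1, which acts on dihydroxybenzoic acids, had means of 4.45 ± 0.77 and 4.996 ± 0.14 (SD, n = 2), and the arrays overlapped.

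UGT74B1 (AT1G24100), which adds glucose in the core pathway of glucosinolate synthesis, varied between replicates in the same way as UGT76B1. It had 8.52 and 7.08 against 7.98 and 6.99, and the difference of -0.32 (0.70) turned to 0.40 without WT replicate 1 and to 0.18 without 35S:OsGSTU4 replicate 2. Of the 19 brighter members, 11 (57.9%) had replicate 1 above replicate 2 in both groups and 2 had the reverse, against 28.1% and 27.9% of all bright probe sets. The labels do not say that a replicate number marks a shared batch.

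Genes of phenylpropanoid conjugation were divided. Of the 8 members among 10 listed, 4 had a higher and 4 a lower mean, with a median of 0.04 and none past the thresholds. UGT72E1 (AT3G50740), which glucosylates coniferaldehyde and sinapaldehyde, had 8.81 and 8.54 against 9.23 and 9.01. The groups stood apart, with a difference of 0.45 (95% interval -0.31 to 1.20). UGT72E2 and UGT72E3, whose enzymes glucosylate monolignols, the building blocks of lignin, had differences of 0.11 (0.24) and -0.44 (0.25). UGT72E3 was the only one of family 72 with a lower mean, at 5.77 and 5.45 against 5.22 and 5.12. The genes UGT84A1, UGT84A3 and UGT84A4 lie in a row on a chromosome and encode enzymes that form glucose esters of hydroxycinnamic acids. UGT84A1 had 5.44 and 4.98 against 3.34 and 4.48, without overlap (-1.30, standard error 0.52), and passed only without 35S:OsGSTU4 replicate 2 at -1.87. UGT84A3 had 8.14 and 8.71 against 8.35 and 8.46, with an interval of -0.94 to 0.90, and UGT84A4 had 6.01 and 6.72 against 6.86 and 6.10. UGT78D1 and UGT78D3, flavonol glycosyltransferase genes that the exceptions do not cover, had differences of 0.10 (0.47) and -0.05 (1.18), the latter at 0.70 to 3.60 over the 4 arrays.

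**Figure D3:**
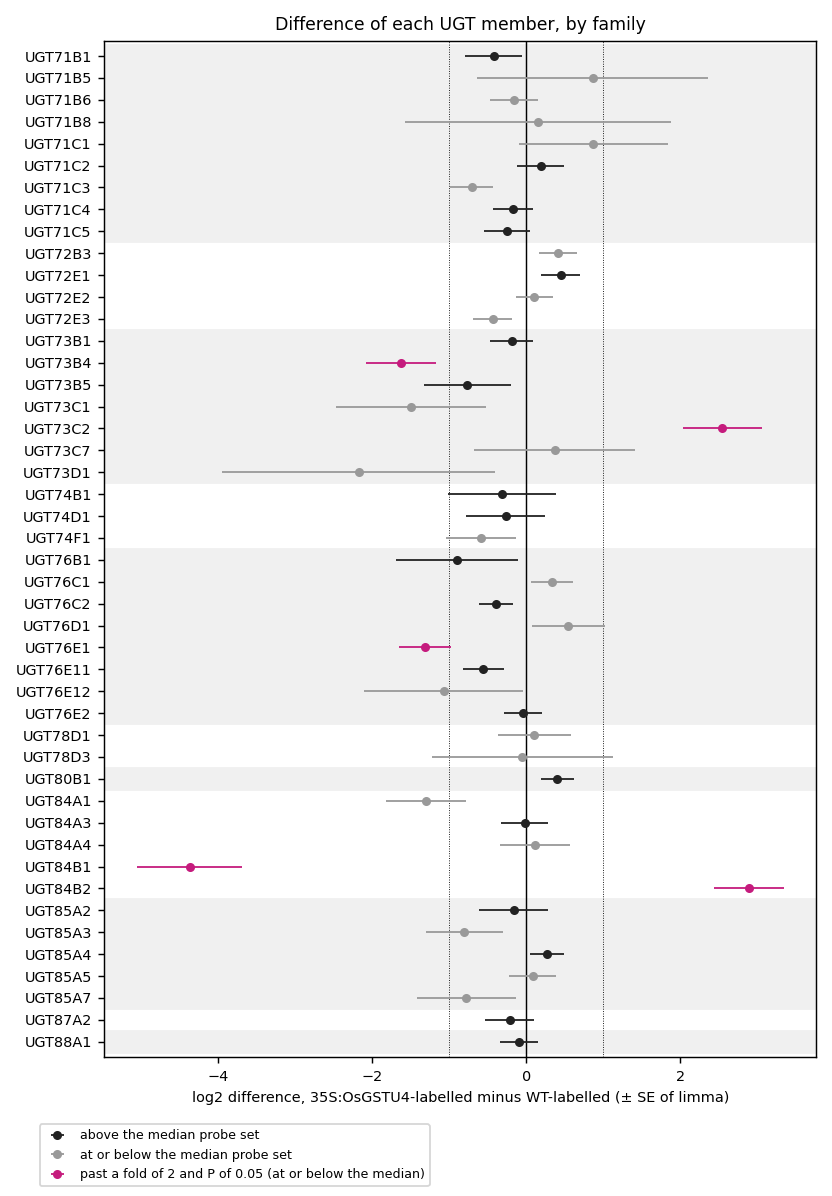
Each member's log2 difference is plotted with its standard error from limma (bars, n = 2 arrays per group), by family, with dotted lines at a fold of 2. Of the 19 members above the median probe set (black) 15 lie left of 0, and the 5 past the thresholds (pink) include UGT84B1 at -4.37 and UGT84B2 at 2.89.

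Over all 46 members 29 had a lower and 17 a higher mean on the 35S:OsGSTU4-labelled arrays, with a median log2 difference of -0.17, where all probe sets had a median of 0.04 and 46% had a lower mean. Among the 27 dimmer members 14 were lower and 13 higher, beside 48.1% lower among all dimmer probe sets. Among the 19 members above the median probe set 15 were lower and 4 higher (median -0.19), beside 44% lower among all such probe sets. The 4 higher ones were UGT71C2, UGT72E1, UGT80B1 and UGT85A4. The count of 15 fell to 11 without WT replicate 1 and 12 without WT replicate 2, with 8 and 7 higher, and the median of -0.19 was -0.071 without 35S:OsGSTU4 replicate 2. Without that array the median of all 46 members was -0.088, and without replicate 1 of its group -0.27. The members' arrays stood apart between the groups at 16 of 46 genes (34.8%), below the 37.4% of all probe sets, with 7 higher (15.2%, background 21.1%) and 9 lower (19.6%, background 16.3%). Among the 19 brighter members 3 stood apart upward and 2 downward, where 23.9% and 16.5% of bright probe sets did.

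Family 72 had 3 members with a higher and 1 with a lower mean (median 0.26), and all 3 members of family 74 had a lower mean (median -0.32). Without WT replicate 1 these medians were 0.12 and -0.068, and leaving out WT replicate 2 instead moved family 74 to -1.04, leaving out 35S:OsGSTU4 replicate 1 to -0.61. Family 71 had 4 higher and 5 lower means and family 85 had 2 and 3. Spread between replicates was wide at some dim members, named here after the values were seen. UGT71B5 had 5.18 and 2.23 against 3.30 and 5.84, and UGT71C1 had 3.88 and 6.36 against 6.02 and 5.97, so the groups overlapped in both. Without WT replicate 2, which was above both 35S:OsGSTU4-labelled arrays, UGT71C1 passed at 2.11.

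Most bright members had small differences. UGT87A2 (AT2G30140), which influences flowering time and stress tolerance, had 10.83 and 10.81 against 10.91 and 10.30, and UGT88A1 had 9.66 and 9.35 against 9.46 and 9.37. UGT85A2 had 10.53 and 9.53 against 9.95 and 9.78, with both 35S:OsGSTU4-labelled arrays between those labelled WT. In family 71, UGT71C4 had 9.16 and 9.51 against 9.24 and 9.10. UGT71C5, which glucosylates abscisic acid, had 9.57 and 9.10 against 8.95 and 9.23, a difference of -0.25 (95% interval -1.14 to 0.65). The other members tied to abscisic acid, UGT71B6 and UGT71B8, had -0.16 (0.31) and 0.16 (1.73), and the arrays labelled WT read UGT71B8 at 2.36 and 6.45. Replicates lay close together at UGT80B1 (AT1G43620), a sterol glucosyltransferase gene, with 7.79 and 7.81 against 8.20 and 8.21. Its difference of 0.40 (95% interval -0.24 to 1.05) did not reach a fold of 2. UGT85A4 had 8.50 and 8.40 against 8.68 and 8.76, also without overlap and also short of the thresholds.

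Many of these genes lie in tandem clusters, and 24 members had another member as the next coding gene. These made 14 adjacent pairs, 7 with the same direction in both genes and 7 with opposite directions. The pairs with the same direction included UGT73B4 with UGT73B5, and UGT71C4 with UGT71C3 and with UGT71C5, while UGT84B1 with UGT84B2 and UGT73C1 with UGT73C2 had opposite signs and large sizes. UGT84B2 and UGT84B1 were the 1 adjacent pair in which both genes passed the thresholds. In family 85, UGT85A7, UGT85A2, UGT85A5 and UGT85A3 follow each other with -0.78, -0.16, 0.09 and -0.80, none of which passed, although UGT85A7 did at -1.54 without 35S:OsGSTU4 replicate 1.

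**Figure D4:**
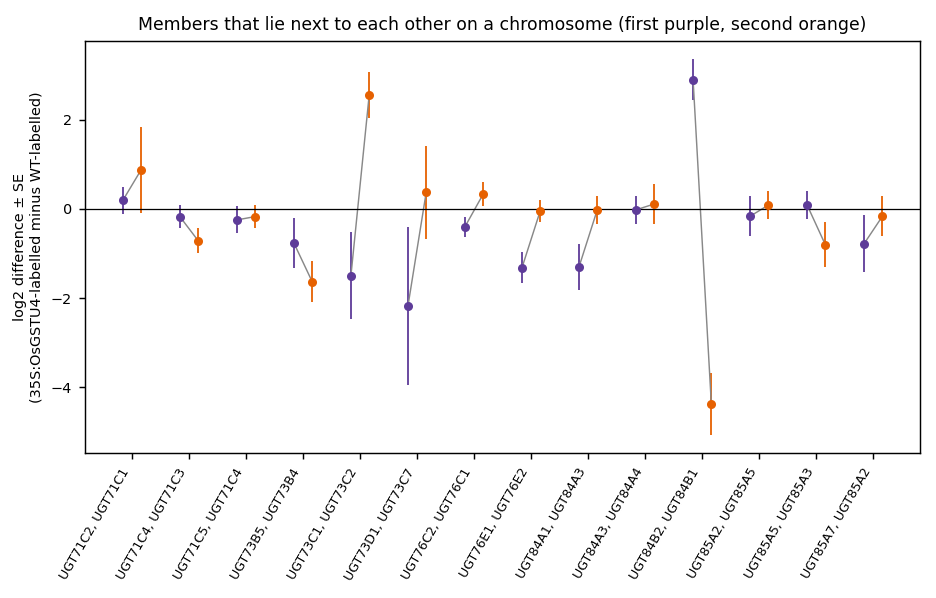
The log2 differences with standard errors of the 14 pairs of adjacent members are joined by lines, the first gene of each pair in purple and the second in orange. Only UGT84B2 and UGT84B1, at 2.89 and -4.37, both passed the thresholds, and most other pairs lie within 2 of 0.

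Genes that work beside these enzymes were listed by function. Of 21 β-glucosidase genes, whose products can release the sugar again, 10 had a probe set of their own, 4 with a higher and 6 with a lower mean and none past the thresholds. BGLU16 had 10.47 and 10.51 against 10.02 and 9.64 (-0.66, standard error 0.26), and BGLU44 had 11.42 and 11.52 against 11.82 and 11.96. Of 16 genes of acylation and transport of conjugates 3 were read. AT5MAT, which adds malonate to anthocyanin glucosides, passed the thresholds at 2.72 and 4.41 against 5.64 and 5.76, a dim signal (adjusted p = 0.856 in limma). The others read, AT2G04050 and AT2G04070, had lower means, with differences of -0.64 (1.75) and -1.45 (0.75), and did not pass. Of 28 genes that supply UDP-sugars 1 was read, USP, with a difference of 0.25 (0.29), and none of 14 listed regulators of the xenobiotic response was. Glycosyltransferase genes that RefSeq lists under another symbol are not among the 46. Of these, SGT, a sterol glucosyltransferase gene like UGT80B1, had 0.38 (0.34), GT72B1, which acts on monolignols and chlorinated phenols, had -0.34 (0.22), and IAGLU, an auxin glucosyltransferase gene, had -0.46 (0.58).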

How the data were processed

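RNA of 4 seedling samples was measured on Affymetrix arrays. The deposited values are log2 signals of probe sets made by the authors. RMA is named in the submitters' notes, with no version given in the sources used here, but the linear signals average 499.8 between percentiles 2 and 98 on every array and some log2 values are 0, which RMA does not give. No detection calls were used.

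After 64 control probe sets had been left out, 22746 were fitted with limma 3.58.1 in R 4.3.3, without a filter or block, and Benjamini-Hochberg adjustment covered all of them. Genes came from the platform annotation joined to RefSeq (TAIR10.1), through the Entrez ID for 13436 probe sets and by symbol or locus for 72, while 5 could not be joined. Probe sets of several genes (503) or without a gene (8730) were tested but not named. The submitters call the 2 replicates per group biological. The study's methods speak of more biological replicates than these 2. Standard errors and P of limma rest on the spread between these arrays, moderated by that of all probe sets. At UGT80B1 the SDs within the groups were 0.0096 and 0.010, but the standard error was 0.22.

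Named are members past the thresholds, the 10 brightest, bright members whose groups do not overlap, and those with a listed role. Others are named as neighbours, as the remaining bright member with a higher mean, or for their spread, after their values were seen. Members and lists were chosen with earlier results of these data known. The alternatives were 2 scalings (array medians, quantiles), a signal filter, an intensity trend, the methods' t-test, a replicate block, other thresholds and leaving out each array. Limma was tested on simulated data. No protein, promoter or probe sequence was used here.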

Additional observations from a re-analysis of the deposited data

How the results depend on the processing

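UGT84B1 and UGT84B2 passed the thresholds under every alternative that kept them. UGT73B4 lost its call with the methods' t-test, and UGT73C2 and UGT76E1 with that test and with the intensity trend. The causes of the changes below were not tested. Keeping only probe sets above the median signal left 49 higher and 47 lower probe sets past the thresholds (542 and 532 without the filter), with 0 and 0 members, and 4 higher and 15 lower member means. The filter removes all 5 members past the thresholds. The intensity trend gave 297 higher and 286 lower probe sets, 1 higher member and 2 probe sets, no member among them, under an adjusted p of 0.05. The methods' t-test gave 239 and 240 probe sets, with 1 member higher and 1 lower. Centring each array on its median moved the median of all probe sets to -0.04, that of the members to -0.25 and the split of calls to 482 higher and 592 lower. Over all probe sets, the deviations of the arrays numbered 1 from their group means correlated at 0.0478 between the groups. Dim probe sets are part of that value, so it does not settle pairing among bright ones. With a replicate block 649 probe sets were higher and 652 lower, and 2 members were higher and 3 lower, where UGT76E1 was lost and UGT73D1 (-2.18) gained.

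With each array left out in turn, a lone array is assumed to vary like those of the other group. Higher calls then ranged from 497 to 1161 and lower calls from 654 to 849 over all probe sets, and from 1 to 3 and 2 to 4 among members. Members with a higher mean ranged from 13 to 20 and with a lower mean from 26 to 33. Above the median signal they ranged from 5 to 8 and 11 to 14. The median ranged from -0.27 to -0.088 for all members, -0.58 to -0.15 for family 76, -0.57 to -0.080 for family 85, -0.39 to -0.057 for β-glucosidases, -2.29 to 1.00 for acylation and transport and -0.94 to -0.35 for root genes.

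Of 35 named members 15 changed sign with an array left out and 20 kept it, and UGT78D3 also turned to 0.039 after quantile normalization. The range was -0.42 to 0.10 for UGT71B6, -1.89 to 2.202 for UGT71B8, -0.34 to 0.0019 for UGT71C4, -0.032 to 0.24 for UGT72E2, -0.92 to 1.66 for UGT73C7, -1.04 to 0.40 for UGT74B1, -0.87 to 0.34 for UGT74D1 and -0.00034 to 1.095 for UGT76D1. It was -0.35 to 0.56 for UGT78D1, -1.50 to 1.40 for UGT78D3, -0.30 to 0.27 for UGT84A3, -0.27 to 0.49 for UGT84A4, -0.66 to 0.34 for UGT85A2, -0.52 to 0.085 for UGT87A2 and -0.25 to 0.067 for UGT88A1.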
